A study of Mus musculus with 3 samples.

Results

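The 9 genes described here encode organic ion transporters of the solute carrier 22 family and were read in mouse liver: Slc22a5, Slc22a7, Slc22a18, Slc22a23, Slc22a26, Slc22a27, Slc22a28, Slc22a29 and Slc22a30. They were chosen by their symbols, from a list selected on earlier readings of these same counts, so their differences between libraries are a description and not a test. All 9 were found among 49492 gene entries, and 16 further entries of the family were read beside them. Total RNA from whole liver of CD-1 mice, an outbred stock, was sequenced in 3 libraries, 1 per group. The control library came from mice given phosphate-buffered saline (PBS). The other libraries came from mice that received zinc oxide (ZnO) nanoparticles by mouth each day at 25 mg/kg body weight, for 8 weeks in one group and 12 weeks in the other. All groups were of the same strain and tissue. The labels do not give sex, age, the number of animals behind a library, or whether the control was taken at 8 or at 12 weeks.

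Transporters of this family sit in the plasma membrane and move small charged molecules across it. The family is usually divided into organic cation transporters, carnitine and zwitterion transporters, and organic anion transporters, and several members have no well-defined substrate. In liver they take up drugs, metabolites and carnitine from the blood, and in mouse a cluster of closely related organic anion transporter genes has multiplied on chromosome 19. Slc22a26 and Slc22a27 of that cluster are known as genes with higher expression in female than in male mouse liver.

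The library totals were 13614979 (control), 14258770 (8 weeks) and 13263211 (12 weeks) counts. Levels are given as counts, as CPM (counts scaled to a common library size) or, between genes, as RPKM (CPM per kilobase of exon). Differences between libraries are log2 ratios of CPM + 1. The call of higher or lower was made at 2-fold, which sets a size and tests nothing. Intervals beside a log2 ratio are exact (Clopper-Pearson) 95% intervals of the log2 ratio of counts, without the added CPM. They cover counting error only, and with 1 library per group no difference has a replicate check. In whole tissue, fewer cells of a type and less RNA per cell cannot be told apart. The liver markers were high in each library, with 8 hepatocyte genes summing to 36530, 47035 and 46375 CPM in the control, 8-week and 12-week libraries, and 0 of the 8 called in either treated library.

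At 8 weeks 4 members were called higher (Slc22a26, Slc22a27, Slc22a29 and Slc22a7) and 1 lower (Slc22a5), where 4.15% of the 14585 genes kept were called higher and 2.1% lower. At 12 weeks 2 members were called higher (Slc22a26 and Slc22a27) and 0 lower, against 3.11% and 1.34% of all kept genes. Between the treated libraries 1 member, Slc22a5, was called higher at 12 than at 8 weeks and 0 lower, against 1.28% and 1.23%. Because the members were chosen with these contrasts in view, nothing is read from these shares. A gene was kept at 1 CPM in at least 1 library. Slc22a26, Slc22a27 and Slc22a29 reached that level in treated libraries only, Slc22a29 at 8 weeks alone, so they could be kept only if they differed. Both comparisons with the control use the same control library, and an error in it would move both.

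**Figure D1:**
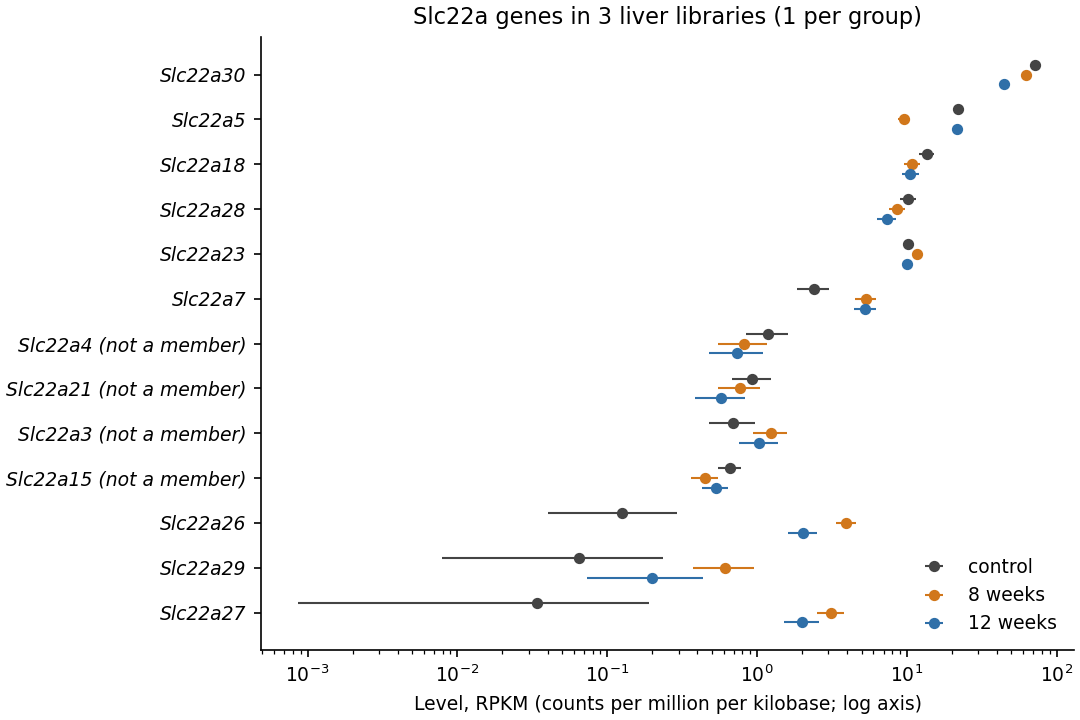
Level of the 9 members and 4 further Slc22a genes (horizontal, RPKM, log axis) in the control (grey), 8-week (orange) and 12-week (blue) library, ordered by the control level, with exact 95% counting intervals as lines. Slc22a26, Slc22a27 and Slc22a29 lie far to the left in the control, at 0.125, 0.0342 and 0.0649 RPKM, and Slc22a5 stands apart at 8 weeks, at 9.59 RPKM.

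Per length, Slc22a30 was the most abundant member in every library, with 71.4, 62.7 and 44.9 RPKM in the control, 8-week and 12-week libraries. Slc22a5 was next in the control (22.0 RPKM) and at 12 weeks (21.7), while at 8 weeks it stood at 9.59, below Slc22a23 (11.7) and Slc22a18 (10.9). Slc22a18 (13.6 RPKM), Slc22a28 (10.2) and Slc22a23 (10.2) followed in the control, and the last 2 cannot be ordered within their counting intervals. Slc22a7 had 2.39 RPKM there. Slc22a26, Slc22a29 and Slc22a27 made up the bottom of the order, each resting on 5 counts or fewer in the control.

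The members Slc22a26, Slc22a27, Slc22a28, Slc22a29 and Slc22a30 are 5 organic anion transporter genes in a row on the minus strand of chromosome 19 (build mm10). They lie at chr19:7781041-7802667, chr19:7864388-7966027, chr19:8062209-8131982, chr19:8160165-8218900 and chr19:8335371-8405111. The stretch from the start of Slc22a26 to the end of Slc22a30 covers 624.071 kb and holds 6 entries of the files, of which these were the 5 kept. No exon of any of the 9 members overlapped an exon of another entry in the files.

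In their coding sequence the genes of the row form close pairs. Slc22a28 and Slc22a30 were identical at 98.8% of aligned coding bases, and Slc22a27 and Slc22a29 at 97.3%, in the GENCODE M21 transcripts. Between the pairs identity was 91.7% to 92.4%, and Slc22a26 stood at 74.5% to 74.6% against the others. The first 90 coding bases, from the start codon on, show the pairing and are printed for that reason. Capitals mark bases that differ from Slc22a30.
Slc22a30: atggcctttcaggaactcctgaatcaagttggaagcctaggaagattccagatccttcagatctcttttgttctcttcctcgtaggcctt
Slc22a28: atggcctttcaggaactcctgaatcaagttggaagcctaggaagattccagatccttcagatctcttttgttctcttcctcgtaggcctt
Slc22a29: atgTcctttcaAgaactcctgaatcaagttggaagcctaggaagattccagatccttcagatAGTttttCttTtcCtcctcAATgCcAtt
Slc22a27: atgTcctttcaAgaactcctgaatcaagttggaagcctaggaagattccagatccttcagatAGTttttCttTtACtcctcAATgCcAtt
Slc22a26: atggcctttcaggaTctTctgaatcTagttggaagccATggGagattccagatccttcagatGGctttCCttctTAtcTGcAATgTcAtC
Slc22a28 had 0 differences from Slc22a30 over these bases, Slc22a29 had 13, Slc22a27 had 14 and Slc22a26 had 20.

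By control level and the call at 8 weeks, Slc22a26 stood with Slc22a27 and Slc22a29, although its coding sequence was about as far from either pair. At 12 weeks Slc22a27 was called and Slc22a29 was not. This grouping is a description only, since Slc22a26, Slc22a27 and Slc22a29 were kept only through treated libraries. Slc22a26, Slc22a27 and Slc22a29 were near the floor in the control and called higher at 8 weeks, and Slc22a28 and Slc22a30, the abundant pair, were not called in either treated library. Slc22a26 had 5 control counts, with 166 at 8 weeks and 79 at 12 weeks, or 0.368, 11.6 and 5.97 CPM. Its log2 ratio was 3.20 at 8 weeks (interval 3.72 to 6.62) and 2.35 at 12 weeks (2.73 to 5.68). The intervals lie above these ratios because 1 CPM was added to each level, which shrinks the ratio of a low gene. As a ratio of counts scaled to library size, Slc22a26 was 31.4-fold higher at 8 weeks (interval 13.2 to 98.1) and 16.2-fold higher at 12 weeks (6.65 to 51.2). With 5 CPM added in place of 1, the log2 ratios were 1.63 and 1.03, both still called.

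Slc22a27 had a single control count (1), with 96 at 8 weeks and 57 at 12 weeks. Both treated libraries were far above the control, and the size of the difference rests on that 1 count. The log2 ratio of CPM + 1 was 2.84 at 8 weeks and 2.30 at 12 weeks. With 5 CPM added it was 1.205 at 8 weeks and 0.875 at 12 weeks, where the call was lost. The ratio of scaled counts was 90.9 at 8 weeks, with an interval of 15.9 to 3628, and 58.4 at 12 weeks, with an interval of 10.1 to 2346.

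Slc22a29, the close relative of Slc22a27, was the lowest of the row in the treated libraries, with 2 control counts against 20 at 8 weeks and 6 at 12 weeks. At 8 weeks its log2 ratio was 1.06, just past the 2-fold call, with an interval of 1.20 to 6.38, and with 5 CPM added it was 0.31 and no longer called. At 12 weeks it was 0.34, with an interval of -0.86 to 4.96 that spans 0, and a difference from the control was not detectable at this depth.

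The 12-week library lay below the 8-week library for all 3 of these genes, without a call. The log2 ratio of 12 against 8 weeks was -0.85 for Slc22a26 (interval -1.36 to -0.56), -0.54 for Slc22a27 (-1.14 to -0.15) and -0.72 for Slc22a29 (-3.23 to -0.26).

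Slc22a30 had 3263 counts in the control library, against 3024 at 8 weeks and 2001 at 12 weeks. Its log2 ratio was -0.19 at 8 weeks (interval -0.26 to -0.12) and -0.67 at 12 weeks (-0.75 to -0.59). The 12-week value was thus the lowest of the 3 by more than counting error, and it did not reach the call. Its near-copy Slc22a28 had 278, 247 and 195 counts in the same order, with log2 ratios of -0.24 (-0.50 to 0.00) and -0.45 (-0.75 to -0.21).

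**Figure D2:**
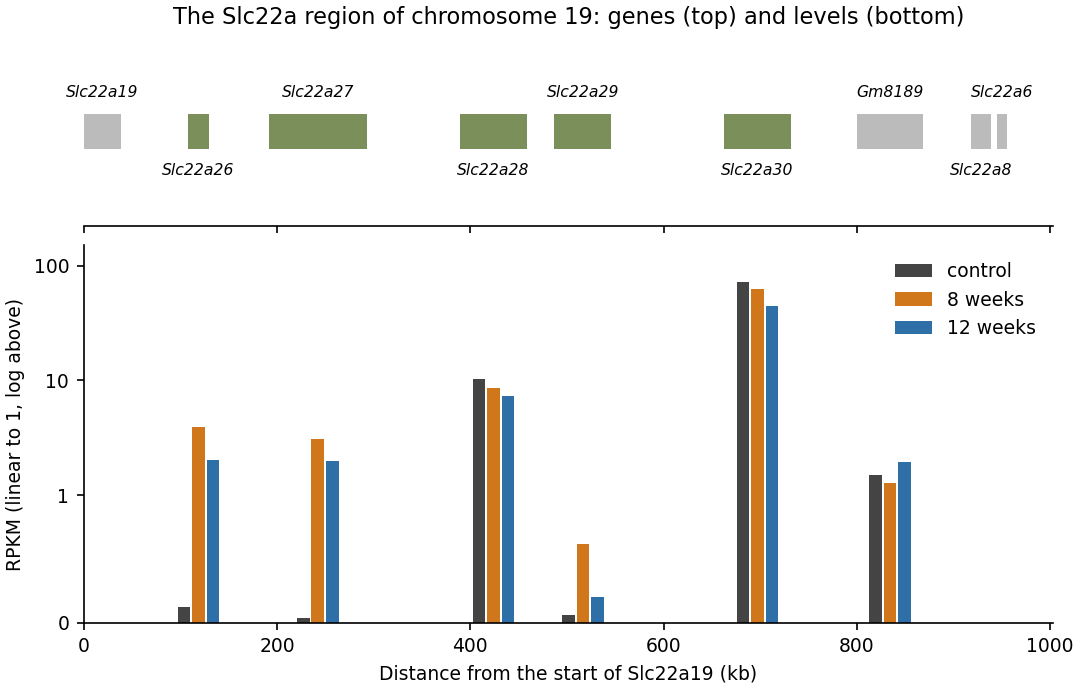
The stretch of chromosome 19 that holds the 5 members, with genes as boxes (members green, other entries grey; horizontal, distance from the start of Slc22a19 in kb) above bars of their level in each library (vertical, RPKM, linear from 0 to 1 and logarithmic above). The control bars of Slc22a26, Slc22a27 and Slc22a29 are close to 0, while Slc22a30 stands at 71.4, 62.7 and 44.9 RPKM.

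Near-identical copies make the value of a single gene uncertain, since a read can fit several of them. Of all 50-base windows of the transcript, 53.9% for Slc22a28, 51.8% for Slc22a30, 30.5% for Slc22a27 and 30.5% for Slc22a29 also occur in transcripts of other genes, which were Slc22a19 and the other genes of these pairs. For Slc22a26 the share was 9.50%, all of it with 1 clone-based entry, and its counts were whole numbers in all 3 libraries. The counts of Slc22a28 and Slc22a30 carried fractions in all 3, those of Slc22a29 at 8 and 12 weeks and that of Slc22a27 at 8 weeks. Sums over each pair do not depend on how reads were divided within it. Slc22a27 and Slc22a29 together had 3 control counts, with 116 at 8 weeks and 63 at 12 weeks, and Slc22a28 and Slc22a30 together had 3541, 3271 and 2196. The sums do not cover reads divided between the pairs, whose part in the values was not tested.

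Summed over all 5 genes of the row, the control had 3549 counts, the 8-week library 3553 and the 12-week library 2338. The log2 ratio of the sum was -0.08 at 8 weeks (interval -0.14 to -0.01) and -0.56 at 12 weeks (-0.64 to -0.49), a level carried mostly by Slc22a30. Slc22a30 made up 87.2% of the row's summed RPKM in the control and 79.4% and 79.5% in the 8-week and 12-week libraries. Slc22a26 went from 0.153% to 4.98% and 3.58%, and Slc22a27 from 0.0418% to 3.94% and 3.54%.

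The rest of the region was near silent. From Slc22a19 to Slc22a6, a stretch of 955.239 kb with 13 entries, the predicted gene Gm8189 was the only other entry kept, with 60, 54 and 76 counts. Slc22a19 had 0, 0 and 2 counts. Slc22a6 and Slc22a8, the classical organic anion transporters of the kidney, had 0 counts in all 3 libraries, where 3 counts correspond to 0.221, 0.209 and 0.227 CPM.

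The promoters of the row do not pair as the coding sequences do. Over the 250 bases upstream of the RefSeq start site (GRCm38.p6, minus strand), Slc22a28 and Slc22a30 were identical at 97.5% of aligned bases, and Slc22a29 resembled this pair (75.8% and 77.8%) more than it resembled its coding partner Slc22a27 (57.9%). Slc22a26 and Slc22a27, both called higher in each treated library, were identical at 52.7%. Slc22a26 was closer to Slc22a28 (64.4%) and Slc22a30 (65.6%), which were not called. Between members on different chromosomes the highest identity was 55.7%, for Slc22a18 and Slc22a27. The sequences are printed because Slc22a29 differed in level from Slc22a28 and Slc22a30 while sharing much of their promoter. They read 5′ to 3′ and end at the start site, and capitals mark bases not aligned to an identical base of Slc22a30. The last 6 bases of the Slc22a30 sequence lie inside the first exon as the files give it.
Slc22a30, chr19:8405106-8405355: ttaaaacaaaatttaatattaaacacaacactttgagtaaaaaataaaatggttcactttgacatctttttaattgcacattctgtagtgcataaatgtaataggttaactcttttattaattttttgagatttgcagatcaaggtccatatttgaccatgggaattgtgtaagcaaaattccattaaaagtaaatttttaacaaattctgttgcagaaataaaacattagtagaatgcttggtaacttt
Slc22a28, chr19:8131983-8132232: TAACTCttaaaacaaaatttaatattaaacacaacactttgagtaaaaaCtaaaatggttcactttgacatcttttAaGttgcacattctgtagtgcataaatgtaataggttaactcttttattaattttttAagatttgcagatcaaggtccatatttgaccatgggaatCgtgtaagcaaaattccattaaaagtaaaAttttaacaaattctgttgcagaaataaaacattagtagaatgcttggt
Slc22a29, chr19:8218901-8219150: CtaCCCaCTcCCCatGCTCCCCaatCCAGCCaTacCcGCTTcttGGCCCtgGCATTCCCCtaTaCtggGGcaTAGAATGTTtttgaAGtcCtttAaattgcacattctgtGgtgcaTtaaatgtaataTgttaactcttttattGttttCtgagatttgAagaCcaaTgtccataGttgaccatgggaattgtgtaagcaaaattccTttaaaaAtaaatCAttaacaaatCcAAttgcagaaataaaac
Of the 250 bases, 12 in Slc22a28 and 75 in Slc22a29 were not identical to Slc22a30. In Slc22a29, 57 of the 75 fell in the distal 90 bases and 18 in the 160 next to the start site. These counts include unaligned bases, since 244 bases of Slc22a28 and 225 of Slc22a29 were aligned to Slc22a30. In the alignment both sequences end before the last bases of Slc22a30, which leaves distal bases without a partner. Of these aligned bases, 238 of Slc22a28 and 175 of Slc22a29 were identical to Slc22a30, and the other aligned bases were mismatches. The counts for the distal 90 and the next 160 bases do not separate unaligned bases from mismatches.

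**Figure D3:**
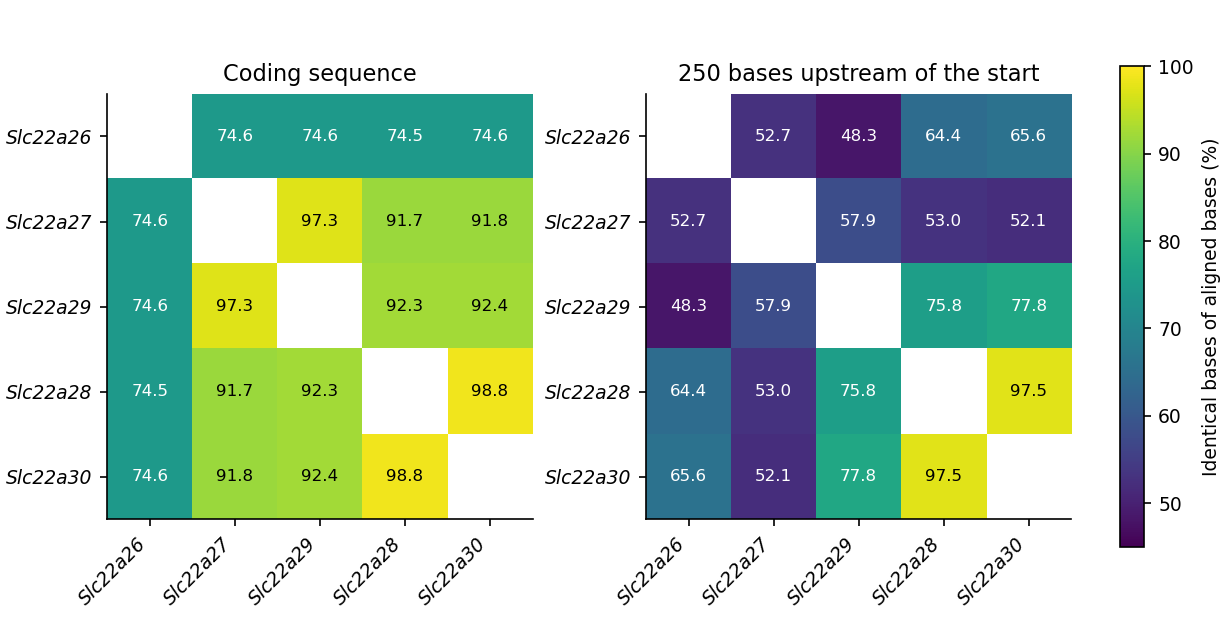
Identity of aligned bases (percent, colour and number in each cell) between the 5 chromosome 19 members for the coding sequence (left) and the 250 bases upstream of the start site (right). Slc22a27 and Slc22a29 share 97.3% of coding bases and 57.9% of promoter bases, while Slc22a28 and Slc22a30 share 98.8% and 97.5%.

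The promoters of the 2 genes with the largest ratios are shown next. Capitals mark the match to TTCNNNGAA, the palindrome bound by STAT5 (a transcription factor activated by growth hormone in liver), in Slc22a26, and the match to the nuclear receptor half-site AGGTCA, read on the other strand as TGACCT, in Slc22a27.
Slc22a26, chr19:7802668-7802917: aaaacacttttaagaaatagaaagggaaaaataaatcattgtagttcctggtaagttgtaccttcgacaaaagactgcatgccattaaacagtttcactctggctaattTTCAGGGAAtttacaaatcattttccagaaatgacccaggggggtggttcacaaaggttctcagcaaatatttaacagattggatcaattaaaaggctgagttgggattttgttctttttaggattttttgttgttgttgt
Slc22a27, chr19:7966028-7966277: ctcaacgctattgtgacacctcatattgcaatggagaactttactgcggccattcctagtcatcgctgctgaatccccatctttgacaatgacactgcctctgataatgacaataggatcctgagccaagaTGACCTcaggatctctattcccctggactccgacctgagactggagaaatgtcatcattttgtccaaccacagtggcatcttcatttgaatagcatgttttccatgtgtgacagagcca
The STAT5 letters stood at -141 to -133 from the start site of Slc22a26 and in the promoter of no other member found. Of 32851 RefSeq promoters of the same length, 7.02% hold them on either strand. The half-site stood at -119 to -114 in Slc22a27 alone, and 14.02% of all promoters hold it. The HNF1 half-site GTTAAT was found in Slc22a29 alone, as ATTAAC at -29 to -24, and occurs in 6.43% of all promoters. The HNF4 site CAAAGTCCA (0.384% of all) and the TATA box TATAAA (12.4%) were in none. No pair of these motifs overlapped in a member, and a match is a run of letters, not evidence that a factor binds. Promoters were found for 8 of the 9 members.

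Slc22a5 was the only member called lower, and only in the 8-week library. It encodes OCTN2, the sodium-dependent carrier that brings carnitine into cells, and lies at chr11:53864542-53891660 on the minus strand. It had 918 counts in the control library, against 422 at 8 weeks and 882 at 12 weeks, or 67.7, 29.5 and 66.6 CPM. The log2 ratio was -1.17 at 8 weeks (interval -1.37 to -1.03) and -0.02 at 12 weeks (-0.16 to 0.11). Between the treated libraries it was 1.15 (1.01 to 1.35), a level 2.26-fold higher at 12 than at 8 weeks as a ratio of counts. The control and 12-week libraries thus sat together, and the 8-week library stood apart from both.

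Slc22a5 has relatives next to it, the carnitine and ergothioneine transporter Slc22a4 and the carnitine transporter Slc22a21, with 77.1% and 90.5% identity of coding bases. Of its 50-base windows 27.1% also occur in Slc22a21, Slc22a4 or the predicted gene Gm12220. Slc22a4 had 41, 30 and 25 counts and Slc22a21 had 46, 40 and 28 in the control, 8-week and 12-week libraries. The 3 genes together had 1005, 492 and 935 counts, a log2 ratio of -1.09 at 8 weeks and -0.07 at 12 weeks, whichever way reads were divided among them. Gm12220 had 0 counts in all 3 libraries. Of the 7 listed neighbours of Slc22a5, 5 were kept and 0 called in any comparison. The transcription factor Irf1 had log2 ratios of 0.01 and 0.37 at 8 and 12 weeks, and the DNA repair gene Rad50 had 0.08 and -0.22.

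The promoter of Slc22a5 was unlike those of the chromosome 19 row, and it is shown with each CG in capitals for that contrast.
Slc22a5, chr11:53891704-53891953: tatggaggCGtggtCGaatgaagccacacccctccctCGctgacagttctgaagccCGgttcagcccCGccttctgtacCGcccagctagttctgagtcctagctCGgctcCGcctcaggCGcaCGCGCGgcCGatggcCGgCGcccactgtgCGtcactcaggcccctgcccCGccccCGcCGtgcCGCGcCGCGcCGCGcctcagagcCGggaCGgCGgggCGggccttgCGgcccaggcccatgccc
It held 30 CG and 73.6% G and C, against 0 to 4 CG and 25.6% to 46% in the promoters of Slc22a26 to Slc22a30. The median over all RefSeq promoters was 6 CG and 52.4%. Slc22a23 resembled Slc22a5, with 32 CG and 78.4%, and Slc22a18 had 0 CG at 52.8%.

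Carnitine carries long-chain fatty acids into mitochondria, and the other genes of its handling were given as a list of 12, of which 11 were in the files and kept. At 8 weeks 0 were called higher and 3 lower, with a median log2 ratio of -0.21, and at 12 weeks 0 and 1, with a median of -0.40. Over all kept genes the medians were -0.02 and -0.01. Between the treated libraries 0 were called. Crot, the peroxisomal carnitine octanoyltransferase, had 23886, 7646 and 7186 counts, a log2 ratio of -1.72 at 8 weeks and -1.70 at 12 weeks. Crat, which transfers acetyl groups to carnitine, had 1096, 546 and 609 counts (-1.06 and -0.80). Cpt2, the inner-membrane carnitine palmitoyltransferase, had 1481, 774 and 820 counts (-1.001 and -0.81). These 3 enzymes were low in both treated libraries, whereas Slc22a5 was low in the 8-week library alone. Cpt1a, the outer-membrane enzyme at the entry of the pathway, had -0.12 and -0.24, and the carrier Slc25a20 had -0.36 and -0.35; both were named after their values were seen.

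**Figure D4:**
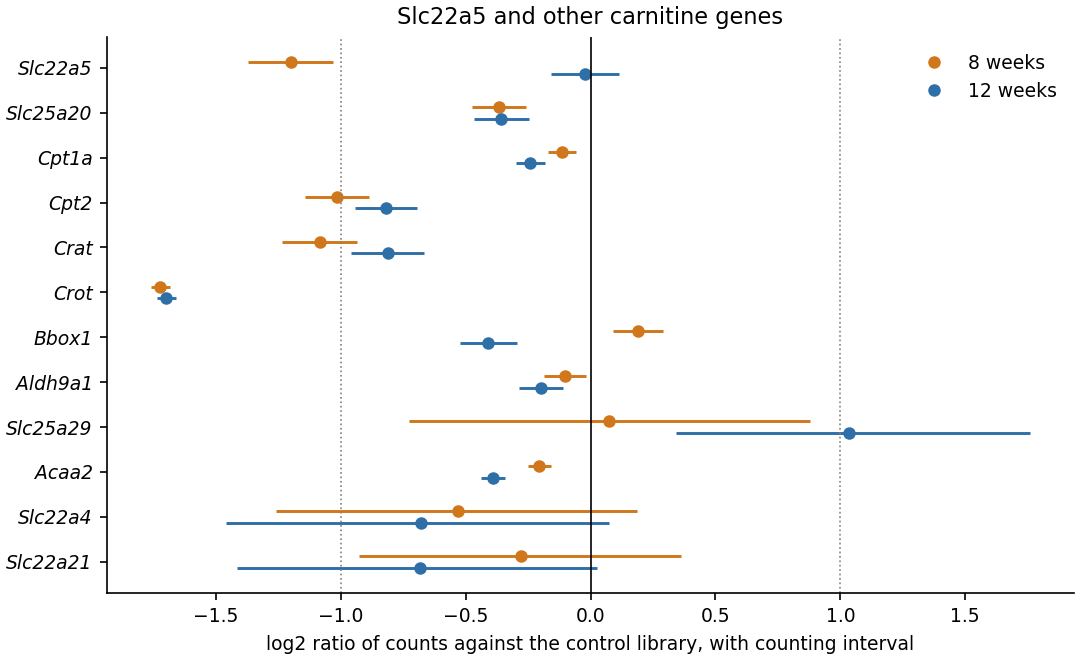
Slc22a5 and the 11 other carnitine genes, with the log2 ratio of scaled counts against the control library (horizontal) at 8 (orange) and 12 weeks (blue) and exact 95% counting intervals as lines; dotted lines mark 2-fold. Slc22a5 lies past the lower line at 8 weeks and near 0 at 12 weeks, while Crot lies past it in both libraries.

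Slc22a7 was higher in both treated libraries by about the same amount. It encodes OAT2, an organic anion transporter of the hepatocyte membrane facing the blood, and lies at chr17:46432185-46438477 on the minus strand. It had 65 counts in the control library, against 154 at 8 weeks and 140 at 12 weeks, or 4.79, 10.7 and 10.6 CPM. The log2 ratio was 1.02 at 8 weeks (interval 0.74 to 1.61) and 0.999 at 12 weeks (0.71 to 1.59). The first is just past the 2-fold call and the second just short of it, and between the treated libraries the ratio was -0.02 (-0.36 to 0.32), so the call separates values that do not differ beyond counting error. As ratios of scaled counts they were 2.24 and 2.21. With DESeq2 size factors or total counts as the scaling, the 12-week ratio passed the call, at 1.003 and 1.001. None of its 50-base windows occur in another gene's transcripts.

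Slc22a18 encodes a transporter of uncertain substrate and is an imprinted gene, expressed mainly from the maternal copy, at chr7:143473736-143499334 on the plus strand. It had 314, 266 and 238 counts in the control, 8-week and 12-week libraries. The log2 ratios were -0.30 (interval -0.56 to -0.08) and -0.35 (-0.61 to -0.12), both below 0 by more than counting error and neither called. Of 13 listed genes of the surrounding imprinted region, 9 were kept. At 8 weeks 1 was called higher, Osbpl5, an oxysterol-binding protein-like gene with 36, 100 and 59 counts (1.13 and 0.58), and 0 lower. At 12 weeks 0 were called, and the medians were -0.14 and -0.06.

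Slc22a23, an orphan transporter with no settled substrate, lies at chr13:34179158-34345182 on the minus strand. It had 881, 1066 and 850 counts. The log2 ratio was 0.19 at 8 weeks (interval 0.07 to 0.33), -0.02 at 12 weeks (-0.15 to 0.12) and -0.21 between the treated libraries (-0.34 to -0.08). The 8-week library was thus slightly the highest of the 3, with no call. Of the members it had the smallest range of log2 (CPM + 1) over the libraries, 0.21, and Slc22a26 had the largest, 3.20.

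**Figure D5:**
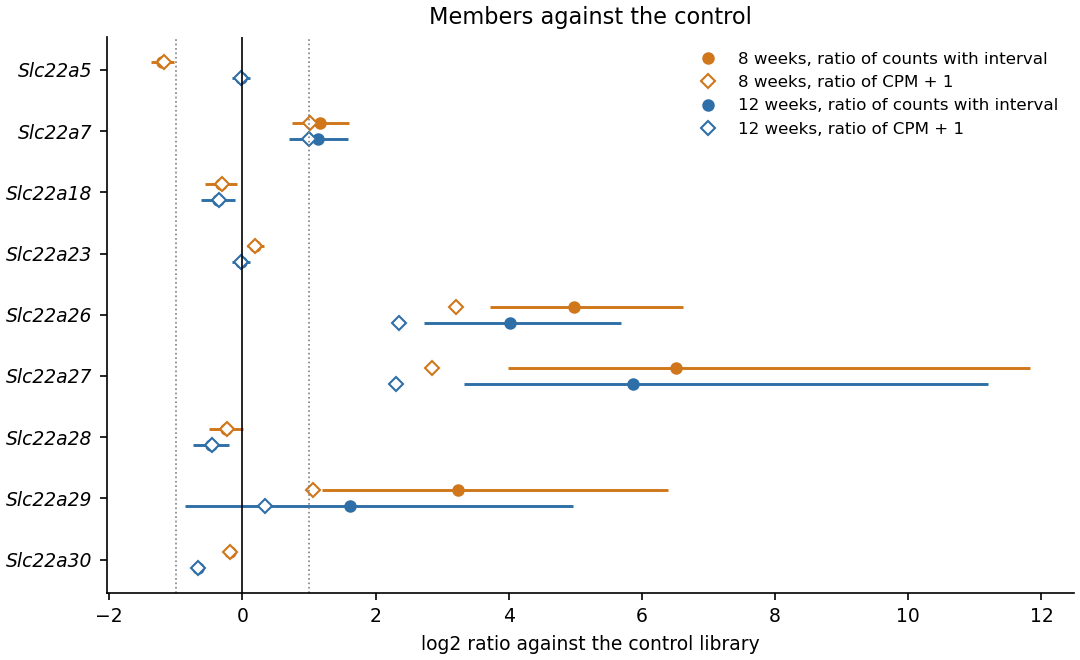
The 9 members at 8 (orange) and 12 weeks (blue) against the control library on a log2 axis, with filled circles for the ratio of scaled counts and its exact 95% counting interval, open diamonds for the ratio of CPM + 1, and dotted lines at 2-fold. Circle and diamond coincide for abundant genes such as Slc22a30 and part for Slc22a26, Slc22a27 and Slc22a29, whose control counts were 5, 1 and 2.

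Of the 16 further Slc22a entries, 4 were kept and 0 were called in any of the 3 comparisons. Their median log2 ratio was -0.29 at 8 weeks and -0.38 at 12 weeks. Slc22a3, or OCT3, had 33, 62 and 48 counts, with log2 ratios of 0.63 (0.20 to 1.49) and 0.43 (-0.09 to 1.26). Slc22a15, whose substrates include zwitterions, had 127, 92 and 100 counts (-0.48 and -0.28). Slc22a4 and Slc22a21, given above beside Slc22a5, were the other kept entries.

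Transporters of other families that share the hepatocyte membrane with these genes were read as lists. Of 12 uptake transporters 2 were called higher and 1 lower at 8 weeks (median 0.33), and 1 and 0 at 12 weeks (median 0.16). Slco1a4, an organic anion transporting polypeptide, had 1355, 4521 and 1588 counts (1.65 and 0.26) and was the 1 gene of the list called between the treated libraries, at -1.39. Slc10a2, the sodium-dependent bile acid transporter best known from ileum and bile ducts, had 129, 334 and 480 counts (1.21 and 1.83). The monocarboxylate transporter Slc16a1 had 2760, 1155 and 1438 counts (-1.32 and -0.90). Slco1a4 at 8 weeks alone thus stood apart from the other libraries, as did Slc22a5, in the opposite direction.

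Of 13 efflux transporters 11 were kept, with 2 called higher at 8 weeks, 1 at 12 weeks and 0 lower in either (medians -0.28 and -0.19). Abcb1a, which encodes a P-glycoprotein that pumps drugs out of cells, had 22, 162 and 155 counts (2.23 and 2.28). Abcc4, a pump for organic anions and bile acids, had 26, 83 and 46 counts (1.22 and 0.62).

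Among 16 regulators of liver transporters and of sex-biased liver genes, 2 were called higher at 8 weeks and the same 2 at 12 weeks, and 0 were called lower (medians -0.01 and 0.12). Cux2, a repressor found mainly in female mouse liver, had 9 control counts, with 106 at 8 weeks and 88 at 12 weeks (ratios of scaled counts of 11.2, interval 5.66 to 25.1, and 10.02, interval 5.04 to 22.6). Onecut1, which encodes the hepatocyte factor HNF6, had 142, 798 and 790 counts (2.31 and 2.40). The Y-linked genes Ddx3y (3221, 3225 and 3258 counts) and Eif2s3y (1350, 1284 and 1016) were present in all 3 libraries, while Xist, the RNA of the inactive X chromosome, had 14, 9 and 13 counts. This check was added after the data were seen.

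The genes most like Slc22a26 in pattern were found by the distance between pairs of log2 ratios against the control, over 3 libraries. Candidates were 7967 genes of other families at 10 CPM or more in at least 1 library. The nearest were Lrtm1 (distance 0.27; ratios 3.30 and 2.102), Chrna4 (0.34; 3.50 and 2.50), Ptgr1 (0.48; 2.97 and 1.93), Fmo2 (0.48; 2.73 and 2.33) and Cd36 (0.55; 2.65 and 2.41). Lrtm1, Chrna4 and Ptgr1 reached 10 CPM at 8 weeks only and had 2, 3 and 16 control counts. Lrtm1 encodes a membrane protein with leucine-rich repeats, Chrna4 a nicotinic acetylcholine receptor subunit, Ptgr1 a reductase of prostaglandins and other lipids, Fmo2 a flavin-containing monooxygenase and Cd36 a fatty acid transporter. With 2 ratios per gene this likeness is a description of 3 libraries.

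Markers of other cells moved beside these results. Of 10 skeletal muscle markers 9 were kept, all 9 called higher at 8 weeks, where 4.15% of all kept genes were called higher. The list had 26 counts in all in the control, against 2700 at 8 weeks and 18 at 12 weeks. Among the kept markers only Mylpf reached 1 CPM outside the 8-week library, so the others could be kept only if they differed. Myh1 and Tnnt3 had 791 and 729 counts at 8 weeks. Slc22a5 was called lower in this same 8-week library. Of 12 Kupffer cell and macrophage markers 12 were called higher at 8 weeks and 11 at 12 weeks, with summed levels of 96.7, 405 and 305 CPM. The part of muscle or macrophage RNA in the values of the members was not tested. Kidney proximal tubule cells express many Slc22a genes, and of their 11 markers 1 was kept, Slc5a2 (131, 142 and 128 counts). The kidney list summed to 10.2, 10.4 and 10.4 CPM, with 6, 6 and 7 of its genes at 0. Of 7 endothelial markers 1 was called higher in each treated library (Lyve1, 1.07 and 1.17), of 7 stellate cell markers 1 at 8 weeks (Col3a1, 1.01), and of 3 kept cholangiocyte markers 1 was lower at 8 weeks (Sox9, -1.52, with 207, 67 and 178 counts). Lists of intestinal, pancreatic and lymphocyte markers had 2, 2 and 3 kept genes. Their calls against the control were Lgr5 at -1.23 at 12 weeks (69, 80 and 21 counts) and Pnlip at -1.12 and -1.22 (18, 1 and 0 counts). Lgr5 was also called lower at 12 than at 8 weeks (-1.35).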

How the data were processed

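Total RNA from CD-1 mouse liver was sequenced from TruSeq libraries, 1 per group, per the labels' protocols. The deposited columns were taken as gene-level estimated counts without normalization. Of the values above 0, 70.2% to 71.5% were whole within 0.005. TopHat2 2.1.0 and Cufflinks 2.2.1.0 are named in the submitters' processing notes, as are mm9 and mm10, with no role for either build. Which program counted reads, and whether by strand, is not given in the sources used here. Positions in the files are those of mm10.

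The estimated counts were rounded and library sizes scaled by TMM in edgeR 4.0.16 (R 4.3.3), with totals of 13263211 to 14258770 counts. Genes at 1 CPM in at least 1 of 3 libraries were kept, 1 CPM was added before log2 ratios were taken, which understates the change of low genes, and calls were made at 2-fold. With 1 library per group there is no test and no p-value. Counting intervals treat amplified reads without molecular identifiers as independent molecules, which they are not. Calls and intervals were checked on simulated counts that held counting error alone. Spread between animals, amplification and reads shared between genes were not part of that check. Promoters came from the RefSeq table (GRCm38.p6), transcripts from GENCODE M21 (GRCm38), and sequences were aligned globally with Biopython 1.88. Coding identity was used in place of protein identity, and the PPAR direct repeat was searched as its half-site.

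The members and gene lists were chosen with earlier results of these data known. Named genes were all members, the 4 further Slc22a genes kept, up to 4 called genes of each list in a comparison or else its 2 most abundant, and the 5 genes most like Slc22a26 in pattern, predicted models passed over. Cpt1a, Slc25a20, Gm8189, Slc22a19, Slc22a6, Slc22a8 and the Y-linked genes with Xist were added after their values were seen. Results for 1 item are not reported here. Alternatives were other pseudocounts, filters, fold thresholds and, for scaling, total counts or DESeq2 1.42.0 size factors. TMM scaling without the 8-week library was added after seeing the data, because that library holds skeletal muscle RNA.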

Additional observations from a re-analysis of the deposited data

Results flagged for a closer look

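Slc22a23 had a log2 ratio of 0.19 at 8 weeks and -0.02 at 12 weeks against the control, and Rad50, a neighbour of Slc22a5, had 0.08 and -0.22. In each gene the treated libraries lay on opposite sides of the control. With 1 library per group the difference was not tested. The 12-week interval of Slc22a23 (-0.15 to 0.12) and both intervals of Rad50 (-0.13 to 0.31 and -0.47 to 0.01) span 0.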

How the results depend on the processing

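No paired analysis was possible because each group has 1 library. For the same reason no library could be left out of its own comparisons, only out of the scaling. Of 117 values of member ratios under other pseudocounts and scalings, 0 reversed a called direction. An added CPM cannot change the sign of a ratio at a given scaling, so for the pseudocounts this outcome was fixed in advance. The ratios of the low genes shrank with a larger pseudocount. With 5 CPM added Slc22a26 was at 1.63 at 8 weeks and 1.03 at 12 weeks, and calls were lost for Slc22a7 (0.69) and Slc22a29 (0.31) at 8 weeks and Slc22a27 at 12 weeks (0.875). Members called against the control numbered 5 at 8 weeks and 2 at 12 weeks. With 5 CPM added they numbered 3 and 1, at 3-fold 2 were left at 8 weeks, and at 1.5-fold 4 were called at 12 weeks. Between the treated libraries the count of 1 became 2 with 0.25 CPM added, 3 at 1.5-fold and 0 at 3-fold. Slc22a7 at 12 weeks passed 2-fold with 0.25 CPM added (1.10), and Slc22a29 passed it between the treated libraries (-1.23). Over all genes, the main setting called 912 at 8 weeks, 650 at 12 weeks and 366 from 8 to 12 weeks. These counts became 1489, 1160 and 722 with 0.25 CPM added, 429, 259 and 161 with 5 CPM, 2709, 2261 and 1479 at 1.5-fold, and 317, 180 and 128 at 3-fold. At 2-fold, the sum over the chromosome 19 genes and the further Slc22a entries stayed without a call under the other pseudocounts and scalings. TMM scaling without the 8-week library was among these. Other filters and fold thresholds were not run for the sum or for the further entries. Slc22a27 and Slc22a29 rest on 1 and 2 control counts, so depth limits the size of their ratios.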
